A study of Homo sapiens with 2 samples.

Results

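MEG3-expressing cells were the cells of a DAC-treated HCT116 culture that held 3 or more unique molecular identifiers (UMIs) of *MEG3*. They numbered 694 of the 1751 DAC-treated cells (39.6%, exact binomial 95% interval 37.3 to 42). None of 1783 mock-treated cells reached 3 UMIs, which allows a share of up to 0.168% when 0 is taken as 3 counts (exact limit 0.207%); this limits cells with 3 UMIs, not cells that express *MEG3*, and 395 of the 1783 had fewer than 10000 UMIs. HCT116 is a colorectal carcinoma line, and DAC (decitabine, 5-aza-2′-deoxycytidine) is a nucleoside that traps DNA methyltransferases, so that DNA methylation is lost as cells divide. Single-cell RNA sequencing measured 33538 genes in 1 library per condition. Cells in culture for 7 days received 2 doses of 0.5 µM DAC, the first 1 day after seeding and the second 2 days later, and spent the last 2 days without the drug. The protocol text is the same for the mock-treated culture, which is labelled as mock. The mock-treated library held 49911689 UMIs (500 to 148446 per cell, median 27899), and the DAC-treated library 59046165 UMIs (501 to 110116 per cell, median 35340).

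*MEG3* is a maternally expressed long non-coding RNA of the imprinted cluster on 14q32, where *MEG8* and *MEG9* are read from the same strand and *DLK1*, *RTL1* and *DIO3* are protein-coding genes favoured on the paternal copy. A methylated control region between *DLK1* and *MEG3* keeps the paternal *MEG3* silent, and *MEG3* is silenced by methylation in many tumours. The RNA has been described as raising p53 targets and as a partner of Polycomb repressive complex PRC2. The question put to the data was what else differed in the cells in which *MEG3* appeared under DAC.

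The cells were chosen by their *MEG3* UMIs, so the values of *MEG3* are a description only. *MEG8*, the second marker of these cells, was not used for the choice. It was detected in 503 of the 694 MEG3-expressing cells (72.5%, 69.0 to 75.8). In DAC-treated cells without a *MEG3* UMI the share was 44 of 824 (5.34%), and in mock-treated cells it was 26 of 1783 (1.46%). These shares are of cells of all depths, and fewer than 10000 UMIs were held by 47 of the 694 and 370 of the 824. At 10000 or more UMIs the shares in these 2 groups were 74.5% and 8.15%. Seen from the other side, 238 DAC-treated cells held 3 or more *MEG8* UMIs, and 232 of them were MEG3-expressing cells. Both markers of the label were thus found together in most of the cells it names.

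The amount of *MEG3* varied widely among the MEG3-expressing cells. They held 11046 of the 11356 *MEG3* UMIs of the DAC-treated library (97.3%), against 2 UMIs in the whole mock-treated library. The median was 11 UMIs per cell, the quartiles were 6 and 20, and the highest cells held 199, 160 and 89. Per 10000 UMIs, the lowest cell held 0.325, the median cell 2.79 and the highest 63.7. The 69 cells with the most *MEG3* UMIs held 33.1% of the total.

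**Figure D1:**
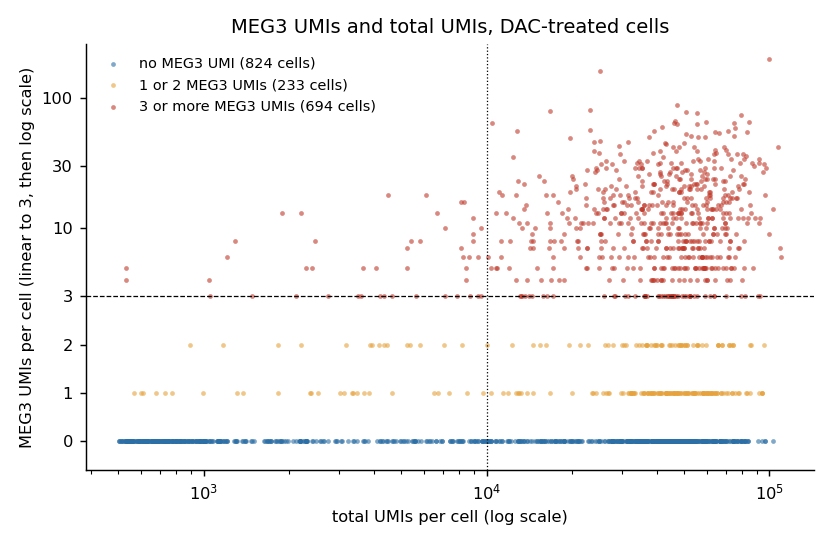
*MEG3* UMIs of each DAC-treated cell (vertical axis, linear to 3 and logarithmic above) against its total UMIs (logarithmic), with 1 point per cell and colours for the 3 classes of *MEG3* count. The dashed line marks 3 UMIs of *MEG3* and the dotted line 10000 UMIs in all; 647 of the 694 MEG3-expressing cells lie to the right of the dotted line.

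At the threshold the change was gradual. Cells with 3 *MEG3* UMIs numbered 70, and cells with 2 numbered 77. *MEG8* was looked for in cells of 10000 or more UMIs after thinning at random to 10000 UMIs. It was found in 16.4% of those with 3 deposited UMIs of *MEG3* and in 8.06% of those with 2. The share was 24.1% at 4, 5.38% at 1 and 2.86% at 0. In *MEG8*, cells with 1 or 2 *MEG3* UMIs therefore lay between the groups compared here, and they belong to neither. In cell cycle genes and mitochondrial content they lay outside both groups, as given below. The share of MEG3-expressing cells also varied with the depth of the cells. It was 47 of 458 cells (10.3%) under 10000 UMIs, 155 of 312 (49.7%) from 10000 to 30000, 336 of 712 (47.2%) from 30000 to 60000 and 156 of 269 (58.0%) from 60000. Below 10000 UMIs a count of 0 says little, which is why shallow cells were left out of the comparison that follows.

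The comparison set 647 MEG3-expressing cells against 454 MEG3-negative cells of the same library, all of 10000 or more UMIs and all thinned at random to 10000 UMIs. Before thinning, the median depth was 45783 UMIs in the MEG3-expressing cells and 41079 in the MEG3-negative cells. After it, *MEG3* was still found in 561 of the 647 cells (86.7%), with a mean of 4.39 UMIs. The 1388 mock-treated cells of the same depth were thinned in the same way and serve as a reference level. Cells of 1 library are not replicates, so no p-values, tests or error over replicates were made, and all intervals are 95% intervals that cover counting error only. A gene counted as measured when its thinned level, averaged over both groups, was at least 0.1 UMI per cell, and as higher or lower when its ratio passed 1.5-fold.

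*MEG8*, the long non-coding RNA that follows *MEG3*, was far more abundant in the MEG3-expressing cells. Its mean was 0.621 UMI per thinned MEG3-expressing cell and 0.0374 per MEG3-negative cell, from 402 and 17 UMIs. The ratio was 16.6 (10.2 to 28.8). The mean was 0.0677 in cells with 1 or 2 *MEG3* UMIs and 0.00360 in mock-treated cells. *MEG8* passed the minimum mean only through the MEG3-expressing cells, so it had to differ to count as measured, and nothing is read from its place among the measured genes. With all UMIs in use, 1582 UMIs stood against 46 and the ratio was 21.7 (16.2 to 29.7). The small count in the MEG3-negative cells was itself above that of the mock-treated cells, at 0.0243 against 0.00539 UMI per 10000, with median depths of 41079 and 31501.5 UMIs. Free RNA in the DAC-treated suspension can put UMIs into cells that do not express a gene, and its part in this count was not tested. The start of *MEG8* (ENSG00000225746) lies 115 kb from that of *MEG3*, on the same strand.

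Other genes of the imprinted cluster were sparse. The list of imprinted 14q32 genes holds 13 names, of which 9 are in the count table, and 6 besides *MEG3* had a UMI in the compared cells; only *MEG8* reached the minimum mean. In 4 of these 6, namely *MEG8*, *MEG9*, *DLK1* and *BEGAIN*, the MEG3-expressing cells held more, and in *DIO3* and *DIO3OS* a difference was not detectable at this depth. All other cluster values are therefore given with all UMIs in use. *MEG9*, the long non-coding RNA that follows *MEG8*, had 90 UMIs in 74 MEG3-expressing cells and 0 in MEG3-negative and mock-treated cells. The lower limit of its ratio was 15.1 by the counting interval. After thinning it had 23 UMIs against 0, a ratio of 5.38 when the empty group is set at 3 counts. The lower limit of the counting interval was then 4.03. *DLK1*, a Notch-like surface protein and the paternally expressed gene next to *MEG3*, had 53 UMIs in 33 MEG3-expressing cells and 4 UMIs in 4 MEG3-negative cells. Its ratio was 8.35 (3.08 to 31.8), and the mock-treated cells held 2 UMIs. As a group, the MEG3-expressing cells thus held more RNA of a gene of either parental side, and which copy was read was not measured. After thinning, *DLK1* had 7 UMIs in the 114 cells with 6 to 10 *MEG3* UMIs (mean 0.0614). In the 54 cells above 10 it had 0, which allows a mean of up to 0.0683. *MEG9* had 2 and 9 UMIs in these classes.

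The genes at the outer ends of the imprinted list were sparse as well. *BEGAIN*, a postsynaptic scaffold gene on the minus strand, has its lower coordinate at −242 kb from the *MEG3* start. It had 108 UMIs against 32 and a ratio of 2.13 (1.42 to 3.26). After thinning its ratio was 7.02 (1.70 to 61.9) from 20 and 2 UMIs, and that of *DLK1* was 4.56 (1.03 to 41.6) from 13 and 2, so the order of these 2 genes is not settled. *BEGAIN* was present without DAC: the mock-treated cells held 0.0307 UMI per 10000, between the 0.0360 of the MEG3-expressing and the 0.0169 of the MEG3-negative cells. *DIO3*, a thyroid hormone deiodinase at 781 kb, had 33 UMIs against 16 (ratio 1.30, 0.696 to 2.53), and its antisense partner *DIO3OS* had 23 against 15 (0.967, 0.483 to 1.99). *RTL1* and *MIR381HG* had no UMI. Positions are from GENCODE release 44 on hg38; the annotation release behind the counts is not stated. In release 44 the non-coding gene *AL117190.1* overlaps *MEG3* and *MEG8* on their strand, and its 41 UMIs against 2 (ratio 12.9, 3.36 to 110) may not be told apart from theirs. *LINC02285*, 341 kb beyond the *MEG3* start, had 16 UMIs against 1 (10.1, 1.57 to 423). These 2 genes were named after their values were seen.

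**Figure D2:**
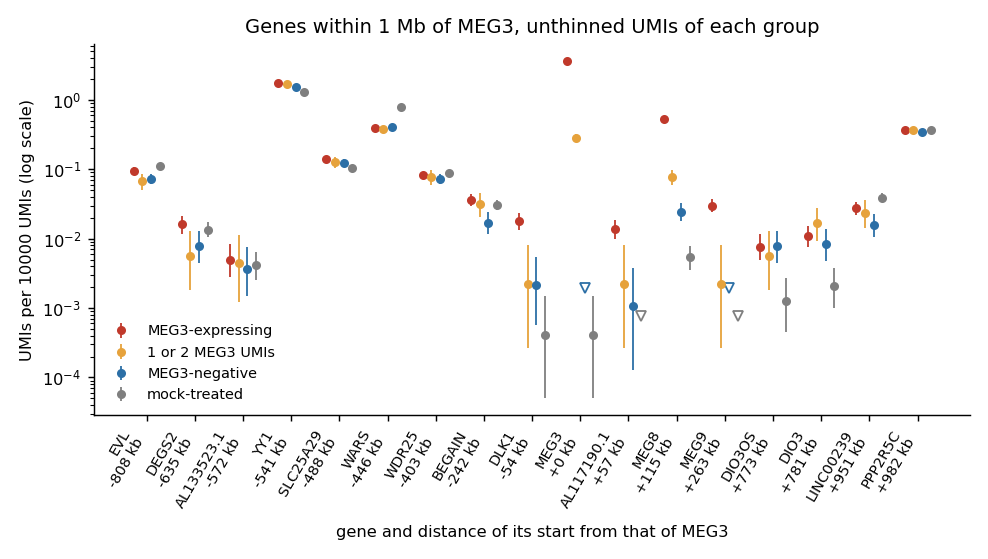
UMIs per 10000 UMIs (logarithmic axis, no thinning) of each gene within 1 Mb of *MEG3* with 20 or more UMIs in the compared cells. Genes are ordered by the distance of their lower coordinate, on either strand, from the *MEG3* start. Points are group levels with 95% counting intervals and open triangles mark the limit of a count of 0; the groups part most from *DLK1* to *MEG9*, less at *BEGAIN*, *DEGS2* and *LINC00239*, and the ratio of *YY1* is 1.16 (1.11 to 1.22).

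Genes around the cluster were a mixed group. Within 1 Mb of *MEG3*, 29 genes outside the imprinted list were in the table, 13 had a UMI in the compared cells after thinning (20 with all UMIs in use) and 4 were measured. Their median log2 ratio was 0.10, against 0.01 over all measured genes, and with another random draw of the thinning it was 0.01 as well. *YY1*, a zinc finger transcription factor, had 1.76 UMIs per MEG3-expressing cell and 1.55 per MEG3-negative cell (ratio 1.13, 1.03 to 1.25). *WARS*, the tryptophan tRNA ligase, had a ratio of 0.933 (0.763 to 1.14), *PPP2R5C*, a phosphatase subunit, 1.02 (0.828 to 1.26), and *SLC25A29*, a mitochondrial carrier, 1.13 (0.802 to 1.59). Below the minimum mean, other genes had higher ratios. *EVL*, an actin regulator just short of the minimum, had 85 and 30 UMIs after thinning (1.99, 1.30 to 3.12) and a ratio of 1.33 (1.08 to 1.64) with all UMIs in use; with another random draw of the thinning its log2 ratio was 0.35. On the same full counts *DEGS2*, a sphingolipid enzyme, had 2.02 (1.11 to 3.88) and *LINC00239* 1.72 (1.12 to 2.71). After thinning the log2 ratio of *LINC00239* was 0.59, and −0.86 at 20% mitochondrial UMIs or less. These 3 were named after their values were seen, and *AL117190.1* and *LINC02285* belong to the same 29 genes.

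The promoter sequence of *MEG3* is shown because its RNA defines the cells; which start site they used was not measured. The first of 3 RefSeq entries gives 300 bases, 250 before and 50 after the start site, at chr14:100825858-100826157 on the plus strand of GRCh38.p14; this start lies 46.7 kb downstream of the outermost start in GENCODE. Capitals mark TGACGTCA, the cyclic AMP response element, which occurs once and 50 bases before the start site, and the motif was searched on both strands.
MEG3 promoter: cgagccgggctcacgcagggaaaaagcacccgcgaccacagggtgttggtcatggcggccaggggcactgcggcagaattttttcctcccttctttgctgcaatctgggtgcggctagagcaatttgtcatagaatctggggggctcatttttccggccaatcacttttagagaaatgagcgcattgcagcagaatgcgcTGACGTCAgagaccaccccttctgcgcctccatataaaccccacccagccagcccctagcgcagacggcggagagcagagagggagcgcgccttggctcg
This element was found in 649 of 35116 promoters of the same length (1.85%). The motif TATAAA also occurs once, 18 bases before the start site, and was found in 11.5% of promoters. The window holds 19 CpG sites, against a median of 14, and 57.1% of promoters hold fewer. A match to a motif does not show that a factor binds there. RNA of 7 measured factors of the CREB family, which bind the first motif, and their partners had a median log2 ratio of 0.13. It was −0.06 in cells of 30000 to 60000 UMIs and −0.01 at 20% mitochondrial UMIs or less. *CREB1* had a ratio of 1.06 (0.827 to 1.37).

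Among the cells the amount of *MEG8* followed the amount of *MEG3*. Grouped by *MEG3* UMIs left after thinning, the *MEG8* mean was 0.0641 in 671 cells with 0, 0.252 at 1, 0.424 at 2, 0.525 at 3 to 5, 0.921 at 6 to 10 and 1.85 in 54 cells above 10. Among the 647 MEG3-expressing cells, the 256 with a *MEG8* UMI had a median of 5 *MEG3* UMIs after thinning, and those without had 2. These 647 cells held 7.07 *MEG3* UMIs for each *MEG8* UMI, a number that the choice of cells by *MEG3* raises. The whole DAC-treated library held 11356 *MEG3* and 1757 *MEG8* UMIs. Depth and mitochondrial content varied along these classes. The median depth before thinning was 44545 UMIs at 0, 47433 at 1, 49014 at 2, 42104 at 3 to 5, 35365 at 6 to 10 and 25088 above 10. The median mitochondrial share was 18% at 0, 20.1% at 3 to 5, 24.5% at 6 to 10 and 35% above 10. In cells with 20% mitochondrial UMIs or less, *MEG8* had means of 0.0616, 0.188, 0.323, 0.517 and 0.844 up to 10 *MEG3* UMIs; the last class, of 10 cells, had 0.800. The *MEG8* ratio between the groups was 17.9 (8.02 to 49.8) in cells of this kind, 9.47 (4.68 to 22.4) from 20 to 50% and 30.7 (10.3 to 151) above 50%.

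**Figure D3:**
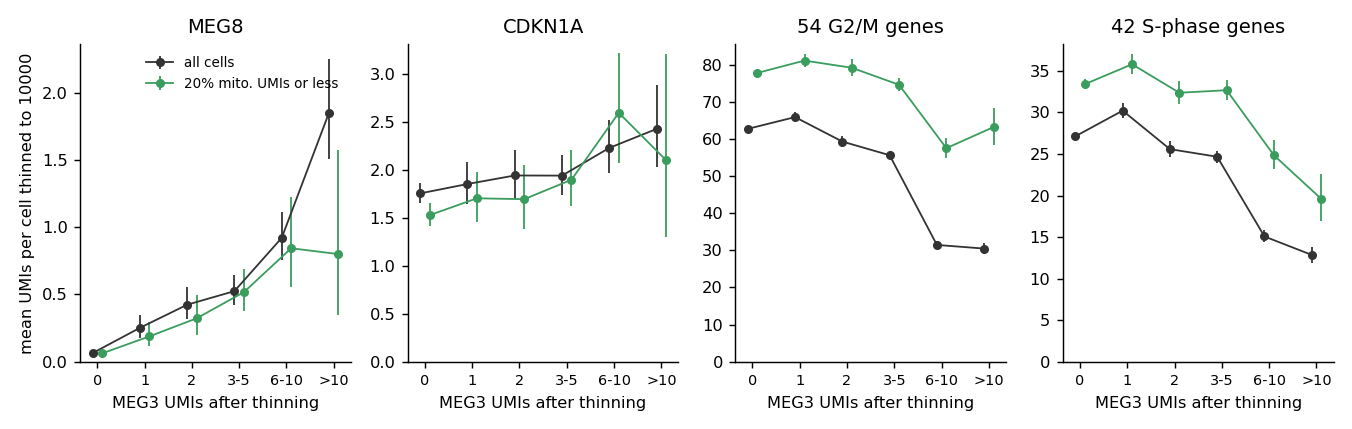
Mean UMIs per cell thinned to 10000 UMIs, with 95% counting intervals, of *MEG8*, *CDKN1A*, 54 G2/M genes and 42 S-phase genes, for cells grouped by *MEG3* UMIs after thinning. Black points are all DAC-treated cells of 10000 or more UMIs and green points those with 20% mitochondrial UMIs or less, of which the last class holds 10 cells; *MEG8* goes from 0.0641 to 1.85 in all cells.

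Ratios of most other genes were near 1. Of 8018 measured genes, 89 were 1.5-fold or more higher in the MEG3-expressing cells (1.11%) and 26 were lower (0.324%). The median log2 ratio was 0.01, and 95% of genes lay between −0.37 and 0.47. Of the 89, 40 were below 0.1 UMI in the MEG3-negative cells, and of the 26, 9 were below it in the MEG3-expressing cells; such genes had to differ to be measured. The counts depended on the setting. At a minimum mean of 0.5 UMI 5 genes were higher and 0 lower, and with all UMIs in use 25 and 6. With *MEG3* counted after thinning they were 242 and 266, in cells of 30000 to 60000 UMIs 267 and 95, and at 20% mitochondrial UMIs or less 220 and 79.

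Several of the 10 highest ratios rested on single cells. *H3.Y*, a primate-specific histone H3 variant, had a ratio of 16.0 (7.17 to 44.4), but 1 cell held 49.6% of the UMIs of the MEG3-expressing group, and cells with 1 or 2 *MEG3* UMIs had a higher mean (0.510 UMI) than the MEG3-expressing cells (0.212). One cell also held 41.8% of the UMIs of *ALPG*, a germ cell alkaline phosphatase (ratio 4.41), and 47.3% of those of *KRT6A*, a stress keratin (2.33). In cells with 20% mitochondrial UMIs or less the log2 ratios of these 3 genes were −0.05, −0.48 and −0.67. *COX8C*, a testis form of a cytochrome c oxidase subunit, was different in kind. It was found in 28.4% of MEG3-expressing cells, 11% of MEG3-negative cells and 0.216% of mock-treated cells, no cell held more than 1.54% of the UMIs of the MEG3-expressing or 3.51% of those of the MEG3-negative group, and its ratio was 3.20 (2.39 to 4.34). The other 5 were *HSPA2*, a heat shock protein of male germ cells (2.23, with 29.3% of its UMIs in 1 cell), *CCDC144A* (2.21), *AC023157.3* (2.02), *GON7*, a subunit of a tRNA-modifying complex (2.0), and *BICDL2* (1.88). With all UMIs in use the ratios of *GON7* and *BICDL2* were 1.26 and 1.28. With mitochondrial UMIs left out before thinning, the log2 ratios of *CCDC144A*, *GON7* and *BICDL2* were 0.47, 0.03 and 0.11.

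The lowest ratios were less stable. *CXCL8*, a chemokine, had 0.451 (0.337 to 0.601), but 44.4% of the UMIs of the MEG3-negative cells came from 1 cell, and it was found in 5.41% of MEG3-expressing and 4.63% of MEG3-negative cells. The antiviral genes *IFIT3* and *IFIT2* had ratios of 0.478 and 0.537. For *IFIT2*, 1 cell held 65.3% of the UMIs of the MEG3-expressing group and 1 cell 40.6% of those of the MEG3-negative group; for *IFIT3* the shares were 26.5% and 16.7%. Next came *CASC8* (0.587), *HUS1*, a subunit of a DNA damage checkpoint clamp (0.610), *PLPBP* (0.613), *PICSAR* (0.617), *ANKRD18A* (0.618) and *DLEU2* (0.626). The ninth gene in that order lies on the Y chromosome and is not described. With all UMIs in use, 3 of the 9 genes named here were past 1.5-fold.

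**Figure D4:**
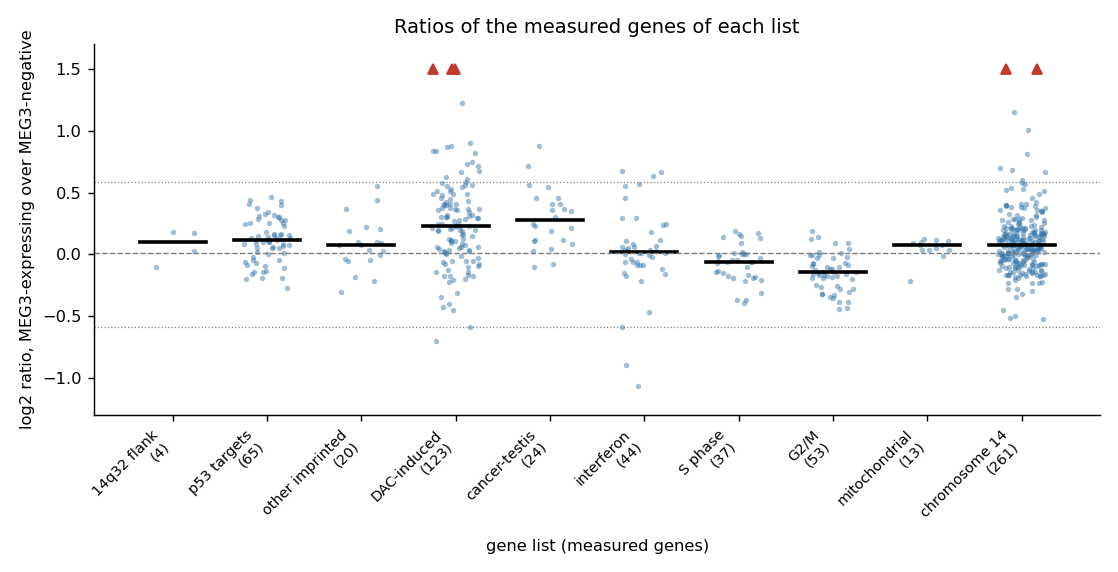
Log2 ratio, MEG3-expressing over MEG3-negative cells, of every measured gene of 10 lists, with 1 point per gene, the list median as a bar and triangles for values above the axis. Dotted lines mark 1.5-fold and the dashed line the median of all 8018 genes (0.01); DAC-induced and cancer-testis genes have medians of 0.23 and 0.27, and G2/M genes −0.15.

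The p53 targets, which *MEG3* has been reported to raise, had a median slightly above that of all genes. Of 92 targets 65 were measured, 49 had a log2 ratio above 0 (75.4%, against 51.8% of all measured genes), and the median was 0.12, against 0.01. None of the 65 passed 1.5-fold, where the shares over all genes were 1.11% higher and 0.324% lower. *CDKN1A*, the cell cycle inhibitor p21, had 2.03 UMIs per MEG3-expressing cell and 1.67 per MEG3-negative cell (ratio 1.22, 1.11 to 1.34), and 0.939 in mock-treated cells. Its mean was 1.75 in cells without *MEG3* after thinning and 2.43 above 10 *MEG3* UMIs. The summed targets were at 39.2 and 39.7 UMIs in the same classes, with 43.8 at 6 to 10, and in cells with 20% mitochondrial UMIs or less they went from 38.6 to 52.5, the last class holding 10 cells. The ubiquitin ligase *MDM2* had a ratio of 0.905 (0.792 to 1.04), with means of 0.823, 0.735, 0.686, 0.762, 0.772 and 0.926 along the classes. *GDF15*, a stress cytokine that *MEG3* has been described as inducing, had 2.98 and 2.85 UMIs (ratio 1.05, 0.974 to 1.12), against 7.25 in mock-treated cells. Along the classes it was uneven, at 2.58 with no *MEG3*, 4.80 at 6 to 10 and 2.69 above 10. In cells with 20% mitochondrial UMIs or less it was 1.93 at 0, 1.70 at 1, 3.29 at 2, 3.47 at 3 to 5, 3.13 at 6 to 10 and 5.90 in the 10 cells above 10. The most abundant other targets were *RPS27L* (1.06), *SFN*, the sigma 14-3-3 protein (1.12), and *PERP* (1.04). *PIDD1* (1.38), *ZMAT3* (1.35) and *ZNF561* (1.35) had the highest ratios and *KITLG* (0.827), *E2F7* (0.874) and *APAF1* (0.874) the lowest. Summed over all targets the cells held 41.3 and 38.8 UMIs, and mock-treated cells 40.1.

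Imprinted genes elsewhere in the genome were mostly sparse. Of 67 listed, 56 were in the table and 20 were measured; the median log2 ratio was 0.08, 13 were above 0 (65.0%, against 51.8% of all measured genes) and 0 passed 1.5-fold, which is near the 1.11% and 0.324% of all genes. *PHLDA2*, a maternally expressed growth inhibitor of the placenta, had 11.3 and 10.7 UMIs per cell, and *GNAS*, the stimulatory G protein subunit, had a ratio of 0.997 (0.945 to 1.05). *KCNQ1OT1*, a long non-coding RNA that silences an imprinted cluster, had 1.02 (0.895 to 1.16), and *HM13* had 0.882 (0.783 to 0.994). The highest ratios were those of *BLCAP* (1.47, 1.13 to 1.91), *PPP1R9A* (1.35) and *ZNF264* (1.29), and the lowest besides *HM13* those of *ERLIN2* (0.812) and *NAA60* (0.861). *ZFP57*, a zinc finger protein that protects methylation at imprinted regions, was below the minimum mean with 76 and 33 UMIs (1.62, 1.06 to 2.51) and had none in mock-treated cells.

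Genes that DAC switched on were compared next. The list holds genes for which no mock-treated cell had more than 2 UMIs, *MEG3* left out, and 123 were measured. Their median log2 ratio was 0.23, 96 were above 0 (78.0%, against 51.8%), 17 were higher (13.8%, against 1.11% of all measured genes) and 2 were lower (1.63%, against 0.324%). The 17 include *MEG8*, *H3.Y* and *COX8C*. Of the 17, 6 were below 0.1 UMI in the MEG3-negative cells, among them *MEG8*, *H3.Y* and *KRT6A*, and had to differ to be measured, so the count supports nothing by itself. Without *MEG8*, a median of 20 of the other 122 genes was found per MEG3-expressing cell, 17 per MEG3-negative cell, 18 per cell with 1 or 2 *MEG3* UMIs and 1 per mock-treated cell. *KRTAP3-1*, a hair keratin-associated gene, had a ratio of 1.59 (1.41 to 1.78) and passed 1.5-fold under 9 of the 13 alternatives that can change a ratio, while *SAP25* had 0.890 (0.795 to 0.997) and *KRT14* 0.665, past 1.5-fold under 5 of 13. Both groups of DAC-treated cells thus carried induced genes.

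Cancer-testis genes, germ cell antigens that are classic targets of demethylation, had a median above that of all genes. Of 64 genes 24 were measured, the median log2 ratio was 0.27 and 22 were above 0 (91.7%, against 51.8% of all measured genes). Higher were 2 (8.33%, against 1.11%), and 0 were lower. These 2 were *CTAG2* (0.700 and 0.381 UMI per cell, ratio 1.84, 1.54 to 2.20) and *MAGEA10* (1.64, 1.16 to 2.36). Of the same 13 alternatives, *CTAG2* passed 1.5-fold under 11 and *MAGEA10* under 6; the log2 ratio of *MAGEA10* was 0.11 at 20% mitochondrial UMIs or less, 0.43 without thinning and 0.45 with another random draw. *VCX3A* had a ratio of 1.48, *GAGE2A* 1.28, *VCX3B* 1.17 (1.42 with all UMIs in use), *MAGEA4* 1.03, *PRAME* 1.02, *MAGEB2* 0.946 and *MAGEC2* 0.931. In the MEG3-negative group 1 cell held 24.2% of the *VCX3A* UMIs and 1 cell 22.9% of those of *VCX3B*. With this top cell of each gene left out, the ratios were 1.95 and 1.51. With the top cell of both groups left out they were 1.87 and 1.44. In cells of 30000 to 60000 UMIs the log2 ratios were 1.31 for *VCX3A* and 1.18 for *VCX3B*. The list summed to 14.5 UMIs per MEG3-expressing cell, 12.2 per MEG3-negative cell and 1.45 per mock-treated cell.

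Interferon-stimulated genes had a median near that of all genes. Of 59 genes 44 were measured, the median log2 ratio was 0.02, 3 were higher (6.82%, against 1.11% of all measured genes) and 3 lower (6.82%, against 0.324%). *IFI27*, an interferon-induced mitochondrial protein, had 10.3 UMIs per MEG3-expressing cell, 6.46 per MEG3-negative cell and 0.0555 per mock-treated cell (ratio 1.59, 1.52 to 1.66), and was found in 90.1%, 72.2% and 4.39% of cells. *XAF1* (1.59) and *DDX60L* (1.55) were the other higher genes, and with another random draw of the thinning their log2 ratios were −0.02 and −0.13. *IFIT3*, *IFIT2* and *IFIT1* (0.666, 0.552 to 0.803) were lower. Of these *IFIT3* and *IFIT2*, at 0.0757 UMI each, were below 0.1 UMI in the MEG3-expressing cells and had to differ to be measured, and the log2 ratio of *IFIT1* was 0.03 by shares of cells. *IFI27* passed 1.5-fold under 11 of 13 alternatives, *XAF1* under 8, *DDX60L* and *IFIT1* under 6. *ISG15*, the most abundant, had 12.3 and 11.8 UMIs, and *B2M* and *IFI6* had ratios of 1.01 and 0.985. *IFI27* lies on chromosome 14, which is taken up again with the other genes of that chromosome.

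Genes of dividing cells had medians below 0, which depended on the cells compared. Of 54 G2/M genes 53 were measured and 8 had a log2 ratio above 0 (15.1%, against 51.8% of all measured genes), with a median of −0.15. Of 42 S-phase genes 37 were measured and 12 were above 0 (32.4%), with a median of −0.06 that became 0.02 at 1 or more *MEG3* UMIs. None passed 1.5-fold, against 1.11% higher and 0.324% lower over all genes. The mitotic kinase *PLK1* had a ratio of 0.764 (0.667 to 0.875), the kinetochore protein *CENPF* 0.801 (0.747 to 0.858), the proliferation marker *MKI67* 0.897 (0.841 to 0.957) and the cyclin-dependent kinase subunit *CKS2* 1.14 (1.05 to 1.23). The log2 ratio of *CKS2* was −0.0051 with another random draw of the thinning and −0.16 with *MEG3* counted after thinning, and that of *MKI67* was 0.07 at 20% mitochondrial UMIs or less. The thymidylate synthase *TYMS* had 0.861 (0.789 to 0.940) and the replication clamp *PCNA* 0.995 (0.907 to 1.09). Summed G2/M UMIs were 62.7 per cell without *MEG3* after thinning and 30.5 above 10 *MEG3* UMIs. Mock-treated cells held 27.1, and DAC-treated cells above 50% mitochondrial UMIs 25.7. By deposited *MEG3* UMIs, cells with 1 or 2 held 69.0, above the 53.4 of the MEG3-expressing and the 59.0 of the MEG3-negative cells. Their summed S-phase UMIs were 29.5, against 24.2 and 25.3.

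Mitochondrial content differed with *MEG3* as well. It was above 20% in 334 of 647 MEG3-expressing cells (51.6%) and 195 of 454 MEG3-negative cells (43.0%), and above 50% in 14.5% of both. Cells with 1 or 2 *MEG3* UMIs were below both groups, with 66 of 192 (34.4%) above 20% and 6.77% above 50%. In cells with 20% or less the median log2 ratio was 0.04 for G2/M genes and 0.04 for S-phase genes, and summed G2/M UMIs were 75.7 and 75.2 per cell. Within these cells the level was still lower at 6 to 10 *MEG3* UMIs (57.5, 32 cells) than at 0 (77.8). The part of RNA quality and of depth in the cell cycle values was not tested. Mean *MEG3* per thinned cell was 1.33 UMIs in cells with 20% mitochondrial UMIs or less, 2.48 from 20 to 50% and 5.38 above 50%. The nuclear long non-coding RNA *MALAT1* went the same way, at 124, 140 and 333 UMIs, while the cytoplasmic message of *EEF1A1*, an elongation factor, went from 38.1 and 33.8 to 5.87.

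Genes of DNA methylation and of PRC2 were looked at by name. Of the DNA methylation machinery 15 of 25 genes were measured, the median log2 ratio was −0.08, 1 was higher (6.67%, against 1.11% of all measured genes) and 0 lower. The maintenance methyltransferase *DNMT1*, the target of DAC, had a ratio of 0.931 (0.855 to 1.01), its cofactor *UHRF1* 0.804 (0.674 to 0.960), and the related *UHRF2* 1.51 (1.05 to 2.19). *UHRF2*, the 1 higher gene, passed 1.5-fold under 5 of 13 alternatives, with a log2 ratio of 0.39 without thinning and 0.34 after thinning to 20000 UMIs. *TRIM28*, the corepressor that works with *ZFP57*, had 0.948 (0.875 to 1.03), and *ZNF445*, another guardian of imprints, 0.949 (0.691 to 1.31). Of 11 PRC2 genes 10 were measured, with a median of 0.02, and 6 had a log2 ratio above 0. The methyltransferase *EZH2* had a ratio of 1.03 (0.876 to 1.20). The accessory subunit *JARID2*, whose binding *MEG3* RNA has been reported to aid, had 1.26 (1.01 to 1.59), the highest of the 10. The lowest was that of *PHF19* (0.768), and *RBBP7* had 0.784.

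Pathways that have been linked to *MEG3* came next. Of the TGF-β pathway 17 genes were measured, with a median log2 ratio of 0.01; the receptor gene *TGFBR1* had a ratio of 1.24 (0.890 to 1.75), *SMAD2* 0.984 (0.832 to 1.17), and the ligand *TGFB2* had 6 and 2 UMIs. Of the Notch pathway 11 were measured, with a median of 0.12 that was −0.05 in cells of 30000 to 60000 UMIs and 0.01 at 50% mitochondrial UMIs or less; the glycosyltransferase *RFNG* had 1.48 (1.23 to 1.78) and the target *HES4* 1.19 (1.11 to 1.27). *CDKN2A*, a tumour suppressor, had 0.871 (0.761 to 0.998), and its log2 ratio was above 0 with another random draw (0.07), without thinning (0.03) and with mitochondrial UMIs left out (0.14). In PRC2 and these pathways no gene passed 1.5-fold in the reported setting, which for lists of 10 to 17 genes is near the shares over all genes (1.11% and 0.324%). With *MEG3* counted after thinning the PRC2 median was −0.17. There the log2 ratios were −0.63 for *EZH2*, −0.79 for the PRC2 gene *PHF19* and 0.45 for *JARID2*. In cells of 30000 to 60000 UMIs *JARID2* was at 0.69. The 13 mitochondrial messages had a median of 0.07 (−0.0060 at 1 or more *MEG3* UMIs and 0.44 with *MEG3* counted after thinning), 4 nuclear long non-coding RNAs 0.10, with *NEAT1* at 1.24 (1.19 to 1.30), and 10 housekeeping genes −0.13, with *GAPDH* at 0.860.

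Markers of other cell types were low in these cells of a single line. The 5 epithelial markers were all measured and summed to 62.4 UMIs per MEG3-expressing cell and 58.9 per MEG3-negative cell; *KRT18*, the most abundant, was found in every MEG3-expressing cell. Of the others *EPCAM* had a ratio of 0.823 (0.760 to 0.891) and *CLDN4* 0.694 (0.559 to 0.861), *KRT8* 1.03 and *CDH1* 1.01. The 6 fibroblast markers summed to 0.286 and 0.156 UMI, and 0.108 in mock-treated cells. Nearly all of this was *COL1A1*, a collagen gene, with a ratio of 1.85 (1.39 to 2.48); *COL3A1* was at 0 in both groups and *LUM* at 0 in the MEG3-expressing cells. The 3 endothelial markers summed to 0.0355 and 0.0110, most of it *PECAM1*, with *CDH5* at 0. The 3 neuroendocrine markers summed to 0.0479 and 0.0176, most of it *SYP*. Apart from *COL1A1*, no marker of these other cell types reached 0.05 UMI per cell in either group.

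Genes of chromosome 14 were slightly higher in the MEG3-expressing cells, a pattern looked at after the values were seen. The 261 measured genes of the chromosome had a median log2 ratio of 0.08, and 67.0% were above 0. The medians of the other 22 chromosomes ran from −0.02 to 0.04, the highest that of chromosome 18. On chromosome 14, 9 genes were higher (3.45%, against 1.11% of all) and 0 lower; 4 of the 9 were below 0.1 UMI in the MEG3-negative cells and had to differ to be measured. Besides *MEG8*, *COX8C*, *HSPA2*, *GON7* and *IFI27*, they were the kinase gene *MAP3K9* (1.75, with a log2 ratio of −0.12 after thinning to 20000 UMIs), *PNMA1* (1.62), *TMEM121* (1.60) and the growth factor *PGF* (1.52). *MEG8*, *COX8C* and *HSPA2* passed 1.5-fold under all 13 alternatives, *GON7*, *MAP3K9*, *PNMA1* and *TMEM121* under 9, and *PGF* under 3. The 4 genes that had to differ to be measured were *MEG8*, *HSPA2*, *GON7* and *MAP3K9*, and their counts of alternatives support nothing by themselves. Without the top cell of the MEG3-expressing group the ratio of *HSPA2* was 1.58. Apart from *MEG8* these lie megabases away from *MEG3*. The nearest, *TMEM121*, starts at 4.75 Mb, *COX8C* at −7.43 Mb, *IFI27* at −6.67 Mb and *HSPA2* at −36.2 Mb. Medians of bins of 10 Mb ran from 0.02 to 0.19, the latter over 6 genes. The medians were 0.14 from 90 to 100 Mb (33 genes) and 0.08 from 100 to 110 Mb (41 genes), where *MEG3* lies. Those of 20 to 30 Mb (0.02, 44 genes) and 60 to 70 Mb (0.02, 29 genes) lay within the range of the other chromosomes.

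**Figure D5:**
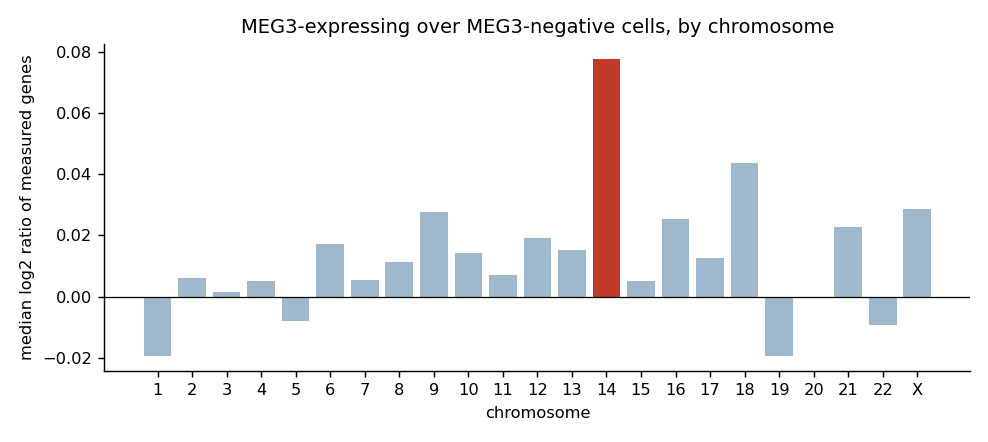
Median log2 ratio, MEG3-expressing over MEG3-negative cells, of the measured genes of each chromosome. Chromosome 14, in red, has a median of 0.08 over 261 genes, and the others lie between −0.02 and 0.04.

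The same was seen as a share of UMIs per cell. Over 254 chromosome 14 genes of moderate level, the mean share was 3.66% in MEG3-expressing and 3.49% in MEG3-negative cells, a ratio of 1.05, and for the other chromosomes the ratio ran from 0.977 to 1.01. By *MEG3* UMIs after thinning, the median share was 3.52% at 0 and at 1, 3.63% at 2, 3.65% at 3 to 5, 3.66% at 6 to 10 and 3.67% above 10. Cells with a share below 0.75 times the median numbered 7 of 647 MEG3-expressing cells (1.08%, 0.436 to 2.22) and 18 of 454 MEG3-negative cells (3.96%, 2.37 to 6.19). This difference was 2.88 percentage points, and in the other chromosomes it ran from −1.13 to 1.69. Above 1.25 times the median lay 21 MEG3-expressing cells (3.25%) and 7 MEG3-negative cells (1.54%). That difference was 1.70 points, below the 2.28 of chromosome 17. Without the low-share cells the median log2 ratio of the chromosome was 0.06. The number of copies of chromosome 14 in the cells was not measured, and its part in these differences was not tested.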

How the data were processed

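Whole UMI counts per gene and cell were deposited by the authors, who mapped reads to hg38 with Cell Ranger; counts were not normalized. Depth per library stands in the report. Groups followed *MEG3* UMIs as deposited. Cells of 10000 or more UMIs were thinned without replacement (seed 20) with Python 3.11.15, numpy 2.4.6, scipy 1.17.1, pandas 2.3.3 and matplotlib 3.10.9; the steps were tested on simulated data. Ratios carry conditional binomial intervals, shares Clopper-Pearson intervals and levels exact Poisson intervals. No cell was filtered on mitochondrial UMIs. Doublets were not called, since a single line carries no marker of them. Of 33538 genes, 33113 matched GENCODE release 44 by identifier; *IGF2*, whose name stands more than once, was left out of the imprinted list. The libraries shared 12 barcodes, 1 of them of a MEG3-expressing cell.

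Named were the detected imprinted 14q32 genes, a fixed pathway list, from each other list the 4 most abundant genes and the 3 highest and 3 lowest ratios, and over all genes the 10 highest and 10 lowest. Some of these, and the immune markers, are not reported here. Genes of chromosome 14 were named after their values were seen. Members and lists were chosen with earlier results of these data known. Alternatives varied the *MEG3* threshold, depth, thinning, scaling, mitochondrial limit and minimum mean.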

Additional observations from a re-analysis of the deposited data

Results flagged for a closer look

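Signals stood in cells that the comparison did not use. DAC-treated cells of fewer than 10000 UMIs held 374 *MEG3* UMIs in 88 of 458 cells, and 395 mock-treated cells of the same kind held 0. Cells with 1 or 2 *MEG3* UMIs held 0.0677 *MEG8* UMI per 10000, above the 0.00360 of mock-treated cells. The causes were not tested.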

How the results depend on the processing

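List medians, counts of genes and named genes were recomputed under 17 alternatives, and the number of MEG3-expressing cells under 4 thresholds; leaving out cells above 50% mitochondrial UMIs, cells of a low chromosome 14 share, or mitochondrial UMIs before thinning, and every alternative for chromosome 14 and for the lists of methylation, PRC2, TGF-β, Notch, CREB, mitochondrial, nuclear, housekeeping and epithelial genes, were chosen after seeing the data. The log2 ratio of *MEG8* ran from 3.61 to 4.63, all within counting error of the reported value. The median of the other imprinted genes ran from −0.03 to 0.12. It stayed within the limits used for list medians, which are values of member genes and not counting error. With a minimum mean of 0.5 UMI no imprinted 14q32 gene was left for the list, so it has no value there; nor have CREB factors, or mitochondrial genes once their UMIs are left out. The cause was not tested for any change below, except that the minimum mean sets which genes are counted.

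MEG3-expressing cells numbered 390 at 10 or more UMIs. Genes higher and lower were 242 and 266 with *MEG3* counted after thinning, 58 and 15 at 1 or more *MEG3* UMIs, 267 and 95 in cells of 30000 to 60000 UMIs, 220 and 79 at 20% mitochondrial UMIs or less, 50 and 16 with thinning to 20000, 25 and 6 without thinning, 274 and 83 at a minimum of 0.05, 5 and 0 at 0.5, and 2135 and 1302 with no minimum; by shares of cells 13 were lower.

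Among list medians, G2/M genes were at −0.56 and S-phase genes at −0.43 with *MEG3* counted after thinning, −0.0413 and 0.0204 at 1 or more *MEG3* UMIs, and 0.0373 and 0.0413 at 20% mitochondrial UMIs or less. G2/M genes were at −0.21 without thinning and −0.0935 without the 5% of cells with the most UMIs. The 14q32 flank was at 0.18 at 5 or more *MEG3* UMIs, 0.38 with no minimum and 0.19 with mitochondrial UMIs left out, but 0.0089 with another seed and 0.0512 with thinning to 20000. DAC-induced genes were at 0.32 at a minimum of 0.5 and 0.0739 with none, and imprinted 14q32 genes at 2.5 with none. Cancer-testis genes were at 0.43 in cells of 30000 to 60000 UMIs and 0.43 without thinning. Interferon genes were at 0.10 in cells of 30000 to 60000 UMIs. The p53 targets were at 0.0702 with thinning to 20000, 0.0672 without thinning and 0.0779 by shares of cells. Chromosome 14 was at 0.0397 by shares of cells. Notch genes fell to −0.0468 in cells of 30000 to 60000 UMIs, 0.0035 by shares of cells, 0.0088 at 50% mitochondrial UMIs or less and −0.0006 with no minimum. With *MEG3* counted after thinning, Notch genes were at 0.32, TGF-β genes at 0.16, housekeeping genes at −0.36, mitochondrial genes at 0.44 and nuclear RNAs at 0.48. Mitochondrial genes were also at −0.0060 at 1 or more *MEG3* UMIs, 0.16 in cells of 30000 to 60000 UMIs, 0.15 with thinning to 20000 and 0.0032 by shares of cells, where housekeeping genes were at −0.0073. TGF-β genes were at −0.0362 at 20% mitochondrial UMIs or less, and epithelial markers at 0.15 there and 0.14 in cells of 30000 to 60000 UMIs.

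A minimum mean cannot change the ratio of a gene, and the scaling shifted every gene by −0.0083, so these 4 are left out for single genes. Under the other 13, of 1807 values for 139 named genes 1582 stayed within counting error, 193 moved beyond it and 32, in 21 genes, changed sign where the reported interval left out a ratio of 1. At 20% mitochondrial UMIs or less these were *ALPG* −0.48, *H3.Y* −0.0508, *KRT6A* −0.67, *HMGB2* 0.0985 and *MKI67* 0.0727. With *MEG3* counted after thinning they were *CKS2* −0.16, *GAGE2A* −0.0105, *ISG15* −0.0830, *KRT18* −0.11, *PHLDA2* −0.0499 and *SUZ12* −0.0183. By shares of cells they were *CKS2* −0.0041, *CXCL8* 0.23, *IFIT1* 0.0273, *ISG15* −0.0060, *PHLDA2* −0.0045 and *SFN* −0.0411. With another seed they were *CDKN2A* 0.0669, *CKS2* −0.0051, *DDX60L* −0.13, *SUZ12* −0.0054 and *XAF1* −0.0175. With thinning to 20000 they were *DDX60L* −0.0339, *ISG15* −0.0226 and *MAP3K9* −0.12. In cells of 30000 to 60000 UMIs they were *CXCL8* 1.46 and *IFIT2* 0.0608. Without thinning *CDKN2A* was at 0.0278, and with mitochondrial UMIs left out *CDKN2A* was at 0.14, *HM13* at 0.0618, *RBBP7* at 0.0808 and *SUZ12* at −0.0252. Depth limits what can be read of *MEG9*, *DLK1*, *DIO3* and other sparse genes. With 1 library per condition, spread between cultures is unknown, and a count of 0 in a cell does not show that a gene is silent.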

Other observations

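Cells in which most UMIs were mitochondrial also held *MEG3*. Of 173 DAC-treated cells with more than 50% mitochondrial UMIs and 10000 or more UMIs in all, 94 (54.3%, 46.6 to 61.9) were MEG3-expressing, against 313 of 698 (44.8%, 41.1 to 48.6) at 20% or less and 240 of 422 (56.9%, 52.0 to 61.7) between. Their median depth was 17181 UMIs, against 47436 and 46222, and their mean *MEG3* per thinned cell 5.38 UMIs, against 1.33 and 2.48. In the MEG3-expressing cells among them *MEG8* had a mean of 1.39 UMIs, and in the MEG3-negative cells 0.0455.

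The 33 cells with a low share of chromosome 14 UMIs included 7 MEG3-expressing cells (21.2%, 8.98 to 38.9), against 640 of the other 1260 (50.8%, 48.0 to 53.6). Their median depth was 40006 UMIs and their median mitochondrial share 19.8%, against 43988 and 19.1% in the others, and 8 of the 33 had more than 50% mitochondrial UMIs, against 165 of the 1260. Among cells with 1 or 2 *MEG3* UMIs 8 of 192 had such a share (4.17%), and among mock-treated cells 11 of 1388 (0.793%).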
